A study of Mus musculus with 10 samples.

Results

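The genes that carry the insulin signal from the receptor to the kinase AKT were followed through 10 RNA-Seq libraries of mouse liver and liver tumors. They were the 9 genes Insr, Irs1, Irs2, Pik3ca, Pik3r1, Pdpk1, Akt1, Akt2 and Trib3, chosen by symbol from the 16697 gene entries of the deposited expression table, and all 9 were found. The libraries came from untreated normal liver (NL, n = 4), from tumors in mice given c-MYC with the empty vector pT3 (c-MYC, n = 3), and from tumors in which FOXO1AAA was given beside the oncogene (c-MYC/FOXO1AAA, n = 3). FOXO1AAA is a constitutively active FOXO1 that AKT can no longer phosphorylate and inactivate. The plasmids were delivered to hepatocytes by hydrodynamic tail vein injection with a transposase, and an EF1α promoter drove FOXO1AAA, so the transgenes were under control of neither insulin nor the endogenous Foxo1 promoter. A legend of the study gave MCL1 in addition to c-MYC for the control tumors, which the extraction text and the account of the sequenced RNA did not. The labels gave wild-type genotype and strain C57BL/6, whereas the extraction text and the study's methods gave FVB mice. Age and sex of the animals were not given for the libraries, and nothing beyond the group sizes stated that each library was a separate animal, so the p-values measure the spread between these libraries.

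Insulin binding activates the receptor tyrosine kinase encoded by Insr, which phosphorylates the adaptors IRS1 and IRS2. These recruit PI3K, a dimer of a catalytic subunit such as p110α (Pik3ca) and a regulatory subunit such as p85α (Pik3r1), and the lipid PIP3 made by PI3K brings PDK1 (Pdpk1) and AKT to the membrane, where AKT is phosphorylated. In the liver AKT excludes FOXO1 from the nucleus, which lowers glucose production, and when insulin is low nuclear FOXO1 is known to raise transcription of Irs2 and Insr, closing a feedback loop. TRIB3 is a pseudokinase that binds AKT and can restrain it, and its gene is a known target of the stress factors ATF4 and CHOP.

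FOXO proteins bind the core letters GTAAACA, and the related insulin response core CAAAACA is known from hepatic FOXO1 targets. The E-box CACGTG is a binding element of MYC and of other basic helix-loop-helix factors. These letters were searched on both strands in the 250 bases before each RefSeq start site (GRCm38.p6), and 8 of the 9 genes had such an entry, with 14 start sites in all. Insr was the gene without an entry, so its promoter was not searched. Irs2 and Akt1 changed with FOXO1AAA, and Irs1, like Irs2, held both an E-box and an insulin response core, although placed differently. The 3 windows that held a match are therefore shown. They run 5′ to 3′ on the strand of the gene, with the matched letters in capitals, at chr8:11008930-11009179 (minus strand) for Irs2, chr1:82291440-82291689 (minus strand) for Irs1 and chr12:112674885-112675134 (minus strand) for the upstream Akt1 start.
Irs2: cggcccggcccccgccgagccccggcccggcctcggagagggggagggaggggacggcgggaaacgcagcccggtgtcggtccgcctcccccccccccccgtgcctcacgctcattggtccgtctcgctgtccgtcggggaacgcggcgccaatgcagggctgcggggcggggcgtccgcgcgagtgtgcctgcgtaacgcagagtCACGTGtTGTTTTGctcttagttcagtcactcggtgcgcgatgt
Irs1: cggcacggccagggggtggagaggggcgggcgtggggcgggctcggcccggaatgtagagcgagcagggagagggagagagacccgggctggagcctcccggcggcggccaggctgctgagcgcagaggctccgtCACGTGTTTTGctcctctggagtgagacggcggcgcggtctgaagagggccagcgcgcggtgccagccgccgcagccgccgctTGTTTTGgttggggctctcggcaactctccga
Akt1: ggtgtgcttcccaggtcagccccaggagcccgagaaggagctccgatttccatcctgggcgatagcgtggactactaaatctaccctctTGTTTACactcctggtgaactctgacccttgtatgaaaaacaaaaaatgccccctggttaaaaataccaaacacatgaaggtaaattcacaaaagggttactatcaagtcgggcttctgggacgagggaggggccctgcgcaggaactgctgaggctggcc
In Irs2 the E-box lay 44 to 39 bases before the start and the insulin response core, read on the opposite strand, lay 37 to 31 bases before it. In Irs1 the E-box at 115 to 110 overlapped a core at 111 to 105, and another core stood at 32 to 26. The upstream Akt1 window held a FOXO core at 161 to 155, again on the opposite strand, and the other Akt1 start held none of the 3 motifs. Of 32851 promoter windows of the same length, 3.17% held GTAAACA, 5.56% held CAAAACA, 6.02% held CACGTG, and 0.295% held both CAAAACA and CACGTG. The windows of Pik3ca, Pik3r1, Pdpk1, Akt2 and Trib3 held none of these letters. A match is a description of the sequence and not a measured binding site.

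Recovered reads ranged from 13.1 to 20.5 M reads per library, and 8 of the 9 genes reached 1 FPKM in 3 or more libraries and were tested. FPKM are fragments per kilobase of gene and M fragments, and a prior count of 2 reads is part of each value. A level therefore rests on the gene length behind the deposited value, from 1730 bp (Pdpk1) to 9355 bp (Insr) among the members. These lengths were not checked against the transcripts present, so the order of different genes and their shares of a sum are tentative. Foxo1 followed the labels and was at 7.17, 6.69, 7.87 and 6.82 FPKM in NL, at 5.26, 6.46 and 5.17 in c-MYC and at 95.6, 83.6 and 70.1 in c-MYC/FOXO1AAA. The tissue markers did not stay level. The summed level of 7 hepatocyte markers was 74270 to 82350 FPKM in NL, 3644 to 5585 in c-MYC and 835 to 1521 in c-MYC/FOXO1AAA, and 6 of the 7 fell from c-MYC to c-MYC/FOXO1AAA. The hepatocyte factor Hnf4a was at 83.7 to 112 FPKM in c-MYC and at 4.67 to 11.1 in c-MYC/FOXO1AAA. The 6 listed muscle markers summed to 1.45 to 5.88 FPKM in c-MYC and 119 to 152 in c-MYC/FOXO1AAA. Myog and Myod1, which define the skeletal muscle program, had 0 reads in every NL and c-MYC library and at least 509 and 134 reads in every c-MYC/FOXO1AAA library. Of 7 stellate cell and fibroblast markers 4 rose. The sum of the 7 was 83.7 to 106 FPKM in NL, 13.9 to 42.9 in c-MYC and 326 to 405 in c-MYC/FOXO1AAA. Much of the last was Dcn, at a mean of 236 FPKM, whereas mean Lrat was 0.278 there and 3.85 in NL. The hepatocyte and stellate counts stand beside 15.9% of all tested genes higher and 12.7% lower from c-MYC to c-MYC/FOXO1AAA. The part of these changes in the results that follow was not tested, and in bulk tissue fewer cells of a type and less RNA per cell cannot be told apart.

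In normal liver the members spanned from Akt2 at 42.2 ± 1.38 FPKM (SD, n = 4) down to Irs1 at 1.11 ± 0.385. Akt1 followed at 32.1 ± 2.08, then Pdpk1 at 21.0 ± 0.915, Insr at 17.6 ± 0.353, Pik3r1 at 13.9 ± 2.36, Pik3ca at 6.78 ± 0.533, Irs2 at 5.61 ± 1.10 and Trib3 at 5.05 ± 1.55. The ranges of Pik3ca, Irs2 and Trib3 overlapped between neighbors in that order, and the other neighbors did not overlap. In the c-MYC tumors Akt1 was on top at 36.4 ± 5.09 FPKM (SD, n = 3), Akt2 and Pdpk1 overlapped at 25.2 ± 2.14 and 25.1 ± 3.47, and Irs1 remained last. In c-MYC/FOXO1AAA tumors Akt1 stood at 101 ± 10.3 FPKM (SD, n = 3), with no overlap with Akt2 at 37.3 ± 5.15, and Pik3r1 had moved to the place above Irs1 at 2.53 ± 0.336.

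**Figure D1:**
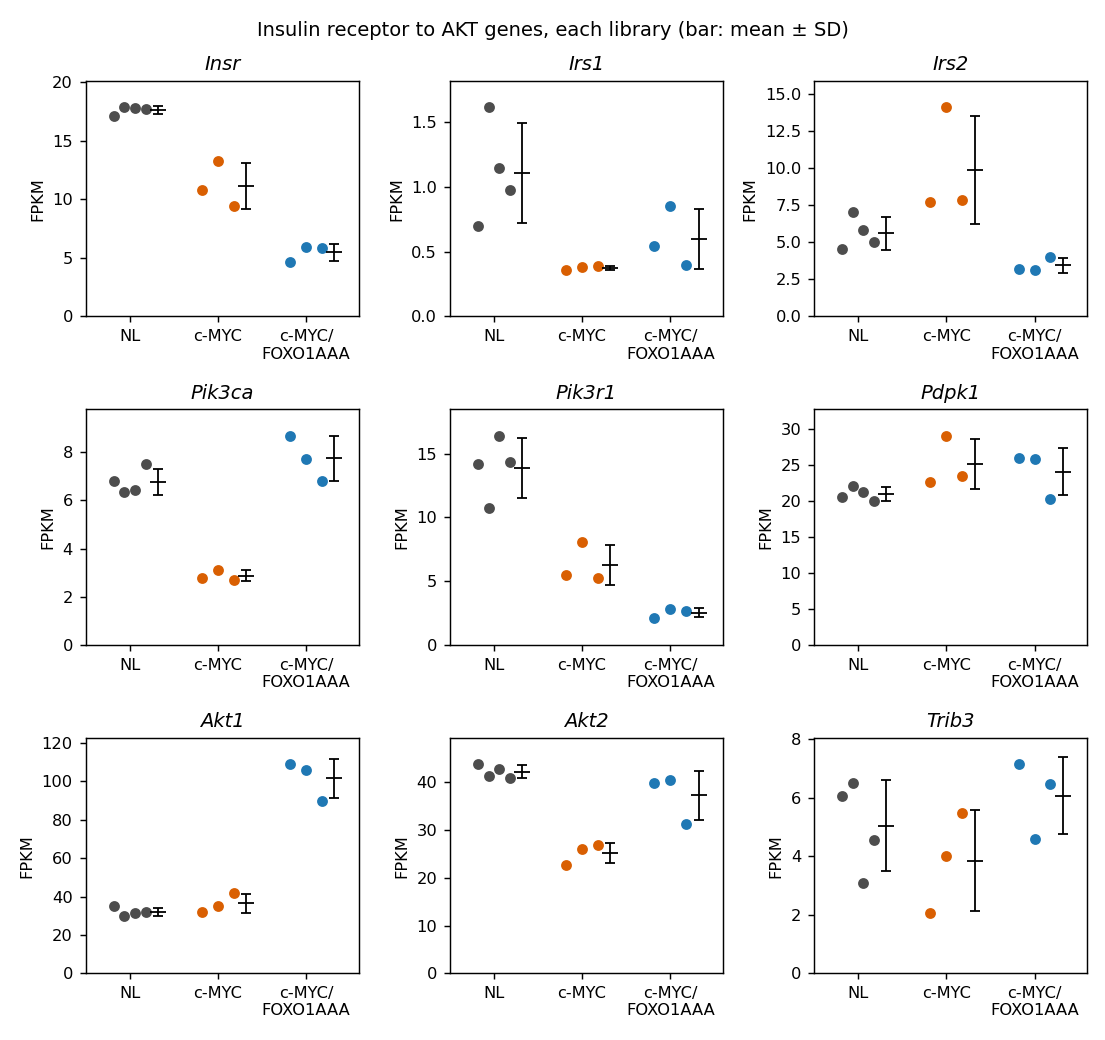
FPKM of the 9 genes in each library (points, linear axis from 0) for NL (n = 4), c-MYC (n = 3) and c-MYC/FOXO1AAA (n = 3), with bars at the mean ± SD. Akt1 is at 89.6 FPKM or more in each c-MYC/FOXO1AAA library and at 41.9 or less in all others, while Insr and Pik3r1 step down from group to group.

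The receptor gene Insr (chr8:3122061-3279617, minus strand, GRCm38) fell with FOXO1AAA. It was at 17.1, 17.9, 17.8 and 17.7 FPKM in NL, at 10.8, 13.3 and 9.40 in c-MYC, and at 4.65, 5.94 and 5.82 in c-MYC/FOXO1AAA. The groups did not overlap, and the NL libraries lay close together. From c-MYC to c-MYC/FOXO1AAA the log2 fold change was -1.02 ± 0.14 (SE, adjusted p = 0.0220), and from NL to c-MYC/FOXO1AAA it was -1.70 ± 0.13 (adjusted p = 1.35e-05), a call lost with equal FPKM totals (-0.60, adjusted p = 0.556). Between c-MYC and NL it was -0.67 ± 0.13 (adjusted p = 0.436), which turned to 0.26 when the libraries were set to the same FPKM total. The call against c-MYC was lost in 7 of 24 alternatives, among them without c-MYC replicate 2 (adjusted p = 0.0813), without c-MYC/FOXO1AAA replicate 1 (adjusted p = 0.0912), with only these groups in the fit (adjusted p = 0.0620) and with equal FPKM totals (-0.85, adjusted p = 0.145).

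Igf1r, the receptor for insulin-like growth factor 1 that uses the same adaptors, moved the other way. It had 13 to 47 reads in each NL and c-MYC library and 2862 to 4939 in each c-MYC/FOXO1AAA library, or 0.0709 to 0.235 FPKM in c-MYC against 15.8, 14.5 and 12.8. The log2 fold change against c-MYC was 6.71 ± 0.42. Igf1r reached the filter on low values through the c-MYC/FOXO1AAA libraries alone, so its rise was a condition of its being tested, and with no filter it was called as well (adjusted p = 5.84e-07). Insr made up 98.6% ± 0.953 (SD, n = 3) of the summed FPKM of both receptors in c-MYC and 27.7% ± 4.42 in c-MYC/FOXO1AAA, and the sum itself was 11.3 ± 1.88 and 19.8 ± 1.06 FPKM. In NL the share was 98.8% ± 0.316 (SD, n = 4) of 17.8 ± 0.307 FPKM. The muscle and fibroblast markers given above were also higher in the same c-MYC/FOXO1AAA libraries.

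Of the adaptors, Irs2 (chr8:10984681-11008458, minus strand) fell with FOXO1AAA, and Irs1 (chr1:82233101-82291416, minus strand) was too low to be tested. Irs2 was at 4.54, 7.05, 5.83 and 5.02 FPKM in NL, at 7.71, 14.1 and 7.89 in c-MYC and at 3.20, 3.12 and 4.02 in c-MYC/FOXO1AAA. The tumors with FOXO1AAA lay below all other libraries, and c-MYC replicate 2 stood above its group. Relative to c-MYC its log2 change was -1.47 ± 0.25 (SE, adjusted p = 0.0102), and without c-MYC replicate 2 the gene was still called. Against NL it was -0.69 ± 0.23 (adjusted p = 0.465), which turned to 0.41 with equal FPKM totals, and between c-MYC and NL it was 0.78 ± 0.23 (adjusted p = 0.351), which became 1.71 and passed the test with equal totals. The same c-MYC library also held the highest level of its group for Insr, Pik3ca, Pik3r1 and Pdpk1, but not for Irs1, Akt1, Akt2 or Trib3. The hepatocyte markers were split. That library was highest for Alb (1435 FPKM against 512 and 562), Apoa1, Apob and Hnf4a, but not for Ttr, Fgb or Cps1.

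Irs1 was at 0.696, 1.61, 1.14 and 0.976 FPKM in NL, at 0.359, 0.384 and 0.388 in c-MYC and at 0.541, 0.851 and 0.398 in c-MYC/FOXO1AAA, with 58 to 229 reads per library. All tumors but c-MYC/FOXO1AAA replicate 2 lay below the NL range. The log2 difference was -1.49 between c-MYC and NL and 0.59 between c-MYC/FOXO1AAA and c-MYC, and with no filter on low values the former passed the test (adjusted p = 0.0307) and the latter did not (adjusted p = 0.942). Irs2 thus supplied 83.9% ± 2.19 (SD, n = 4) of the summed FPKM of both adaptors in NL, 96.1% ± 1.11 in the c-MYC tumors (SD, n = 3) and 85.0% ± 6.23 in those with FOXO1AAA (SD, n = 3), where the sum was lowest at 4.04 ± 0.342 FPKM.

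The catalytic and regulatory PI3K genes among the members parted. Pik3ca (chr3:32397671-32468486, plus strand) fell from NL to c-MYC and rose with FOXO1AAA. It was at 6.83, 6.34, 6.43 and 7.51 FPKM in NL, at 2.77, 3.12 and 2.71 in c-MYC and at 8.69, 7.74 and 6.79 in c-MYC/FOXO1AAA. The c-MYC tumors stood below all other libraries, and NL and c-MYC/FOXO1AAA overlapped. On the log2 scale the change was -1.24 ± 0.13 (SE, adjusted p = 0.000757) for c-MYC versus NL and 1.43 ± 0.14 (adjusted p = 0.000375) for c-MYC/FOXO1AAA versus c-MYC, and both values rest on the same c-MYC libraries. The rise was called in all 24 alternatives tried. The fall was lost with equal FPKM totals (-0.31, adjusted p = 1), and c-MYC/FOXO1AAA versus NL, at 0.19 ± 0.13 (adjusted p = 1), then became a call at 1.29.

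Pik3r1 (chr13:101680563-101768217, minus strand) was lower at each step. It was at 14.2, 10.7, 16.4 and 14.3 FPKM in NL, at 5.47, 8.04 and 5.24 in c-MYC and at 2.15, 2.80 and 2.63 in c-MYC/FOXO1AAA, with no overlap between groups. The log2 fold change was -1.16 ± 0.19 (SE, adjusted p = 0.0148) for c-MYC versus NL, -1.29 ± 0.21 (adjusted p = 0.0131) for c-MYC/FOXO1AAA versus c-MYC and -2.45 ± 0.19 (adjusted p = 4.01e-06) for c-MYC/FOXO1AAA versus NL. The change from NL to c-MYC/FOXO1AAA was called in all 24 alternatives. The call for c-MYC versus NL was lost in 6 of 24, among them without c-MYC replicate 1 (adjusted p = 0.0549), without c-MYC replicate 3 (adjusted p = 0.0620) and with equal totals (-0.24, adjusted p = 1), and that between the tumor groups in 4 of 24, among them without c-MYC replicate 2 (adjusted p = 0.0514) and without c-MYC/FOXO1AAA replicate 1 (adjusted p = 0.0520).

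Other PI3K subunits changed as well. Pik3cd, which encodes p110δ, known mainly from leukocytes, rose from 6.07, 9.77 and 7.70 FPKM in c-MYC to 141, 96.0 and 78.6 in c-MYC/FOXO1AAA (log2 fold change 3.73 ± 0.29, adjusted p = 6.4e-06). The summed level of 7 Kupffer cell and macrophage markers was 219 to 387 FPKM in NL, 121 to 146 in c-MYC and 75.7 to 125 in c-MYC/FOXO1AAA. Much of the NL sum was Clec4f, at a mean of 208 FPKM in NL and 4.66 in c-MYC, whereas Cd68 went from 7.02 to 34.5. From NL to c-MYC 1 of the 7 markers rose and 2 fell, beside 24.5% of all tested genes higher and 23.6% lower. With equal FPKM totals it was 4 and 2, and the median log2 fold change with the deposited scaling was 0.27. With FOXO1AAA 1 of them rose (Clec4f, 2.20 ± 0.53, adjusted p = 0.024) and 1 fell (Timd4, -3.39 ± 0.34, adjusted p = 3.9e-05), beside 15.9% of all tested genes higher and 12.7% lower. Both lymphocyte markers in the table summed to 1.08 to 2.32, 1.82 to 2.09 and 0.652 to 1.36 FPKM in the same order, and the part of these cells in the Pik3cd level was not tested. Pik3cb, which encodes p110β, fell by 1.77 ± 0.21 on the log2 scale (adjusted p = 0.00065). Of the summed FPKM of Pik3ca, Pik3cb and Pik3cd, Pik3ca made up 44.8% ± 3.14 (SD, n = 4) in NL, 20.9% ± 2.50 in the c-MYC tumors (SD, n = 3) and 7.0% ± 1.10 in those with FOXO1AAA (SD, n = 3), although its own level in c-MYC/FOXO1AAA reached that of NL. Of the summed FPKM of Pik3r1, Pik3r2 and Pik3r3, Pik3r1 made up 15.8% ± 2.61, 5.01% ± 1.03 and 1.58% ± 0.281 in the same order. Pik3r2, which encodes p85β, had the highest FPKM of these in every group. In NL, however, Pik3r2 had 378 to 620 reads against 717 to 1139 for Pik3r1, and Pik3cd had 22 to 51 against 368 to 464 for Pik3ca. These shares thus also rest on the gene lengths behind the FPKM, whereas the change of a gene between groups does not.

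Pdpk1 (chr17:24073680-24150924, minus strand), the kinase that phosphorylates the activation loop of AKT, passed no test with the deposited scaling. It was at 20.0 to 22.1 FPKM in NL, at 22.7, 29.1 and 23.5 in c-MYC and at 26.0, 25.8 and 20.3 in c-MYC/FOXO1AAA, and the tumor groups overlapped. Its log2 fold change was 0.25 ± 0.12 (SE, adjusted p = 1) for c-MYC versus NL -0.06 ± 0.13 (adjusted p = 1) between the tumor groups and 0.19 ± 0.12 (adjusted p = 1) for c-MYC/FOXO1AAA versus NL. With equal FPKM totals it was 1.18 for c-MYC versus NL (adjusted p = 0.00160) and 1.29 for c-MYC/FOXO1AAA versus NL (adjusted p = 0.000409), both calls, and 0.11 between the tumor groups.

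Akt1 (chr12:112653821-112674884, minus strand) rose with FOXO1AAA. It was at 34.9, 30.0, 31.3 and 32.1 FPKM in NL, at 31.9, 35.3 and 41.9 in c-MYC and at 109, 106 and 89.6 in c-MYC/FOXO1AAA. NL and c-MYC overlapped, and the tumors with FOXO1AAA stood above both. The log2 fold change against c-MYC was 1.48 ± 0.12 (SE, adjusted p = 9.58e-05) and against NL 1.66 ± 0.12 (adjusted p = 5.29e-06), and both calls held in all 24 alternatives. For c-MYC versus NL it was 0.18 ± 0.12 (adjusted p = 1), and 1.10 and a call (adjusted p = 0.00167) with equal totals.

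Akt2 (chr7:27591552-27640826, plus strand), the isoform most tied to hepatic insulin action, was at 43.8, 41.2, 42.8 and 40.9 FPKM in NL, at 22.7, 26.0 and 26.8 in c-MYC and at 39.9, 40.5 and 31.3 in c-MYC/FOXO1AAA. The c-MYC tumors lay below both other groups. The log2 fold change was -0.75 ± 0.11 (SE, adjusted p = 0.155) for c-MYC versus NL and 0.56 ± 0.12 (adjusted p = 1) for c-MYC/FOXO1AAA versus c-MYC. Against a change of 0 instead of 1.5-fold, both passed (adjusted p = 9.22e-05 and 0.00193), and with equal totals the former turned to 0.18. For c-MYC/FOXO1AAA versus NL it was -0.19 ± 0.11 (adjusted p = 1), and 0.91 and a call with equal totals.

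**Figure D2:**
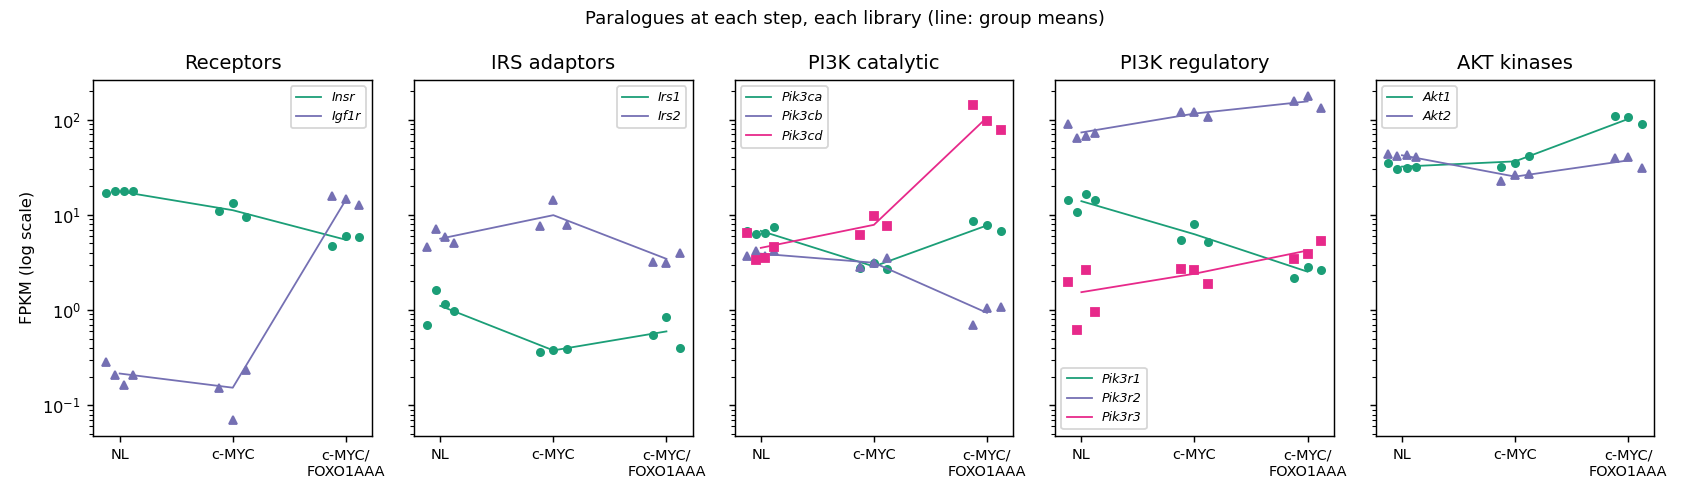
FPKM (log axis) of the members and their paralogues at each step in each library (points), with lines through the means of NL (n = 4), c-MYC (n = 3) and c-MYC/FOXO1AAA (n = 3). Insr and Igf1r change places with FOXO1AAA, Pik3cd rises to 78.6 FPKM or more, and Akt1 moves away from Akt2.

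Trib3 (chr2:152337422-152344032, minus strand) passed no test with the deposited scaling. It was at 6.05, 6.50, 3.09 and 4.57 FPKM in NL, at 2.05, 4.01 and 5.49 in c-MYC and at 7.15, 4.60 and 6.48 in c-MYC/FOXO1AAA, and all groups overlapped. Its log2 fold change was -0.45 ± 0.35 (SE, adjusted p = 0.912) for c-MYC versus NL, which turned to 0.48 with equal FPKM totals, and 0.75 ± 0.37 (adjusted p = 0.748) for c-MYC/FOXO1AAA versus c-MYC. For c-MYC/FOXO1AAA versus NL it was 0.30 ± 0.35 (adjusted p = 0.994), which became 1.40 and a call with equal totals (adjusted p = 0.0315). Of 12 tested ATF4 and CHOP genes, Trib3 included, 4 rose with FOXO1AAA and 0 fell by limma, beside 15.9% of all tested genes higher and 12.7% lower. At an unadjusted p under 0.05 it was 5 and 0, and by limma voom with the library sizes of the authors 4 and 1. Nupr1, a stress-responsive chromatin factor, went from 6 to 9 reads in c-MYC to 359 to 655 (log2 fold change 5.33 ± 0.20), and it was tested only because of its c-MYC/FOXO1AAA libraries (adjusted p = 2.68e-08 with no filter). Chac1, which degrades glutathione, rose by 3.04 ± 0.81 (adjusted p = 0.026) and lost its call in 5 of 24 alternatives. Asns and Psat1, of asparagine and serine synthesis, rose from NL to c-MYC by 5.26 ± 0.62 (adjusted p = 5.2e-05) and 5.53 ± 0.69 (adjusted p = 7.7e-05) on the log2 scale and were not called with FOXO1AAA, at -1.29 and -1.12. Ddit3, which encodes CHOP, fell from NL to c-MYC by 1.20 on the log2 scale (adjusted p = 0.00030), a call lost with equal totals, and rose with FOXO1AAA by 0.92 (adjusted p = 0.029), a call lost in 9 of 24 alternatives.

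Across the comparison of c-MYC/FOXO1AAA with c-MYC, 2 of the 8 tested members rose (Akt1 and Pik3ca) and 3 fell (Insr, Irs2 and Pik3r1), against 15.9% of all 14017 tested genes called higher and 12.7% called lower. For c-MYC versus NL 2 of 8 fell (Pik3ca and Pik3r1) and 0 rose, against 23.6% of all genes lower and 24.5% higher. No member was higher there at an unadjusted p under 0.05 or by limma voom with the library sizes of the authors, whereas limma voom on summed reads gave 3 higher and 0 lower. For c-MYC/FOXO1AAA versus NL 1 rose (Akt1) and 2 fell (Insr and Pik3r1), against 31.2% and 26.6%. The median log2 fold change of the 9 members was 0.56, -0.67 and -0.19 in these comparisons, and that of all tested genes 0.03, 0.08 and 0.21. The libraries of the groups did not overlap for 7 of the 9 members in c-MYC/FOXO1AAA versus c-MYC, beside 63.4% of all tested genes, for 7 in c-MYC versus NL, beside 73.9%, and for 5 in c-MYC/FOXO1AAA versus NL, beside 80.1%. The comparisons share libraries and are not independent of each other.

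**Figure D3:**
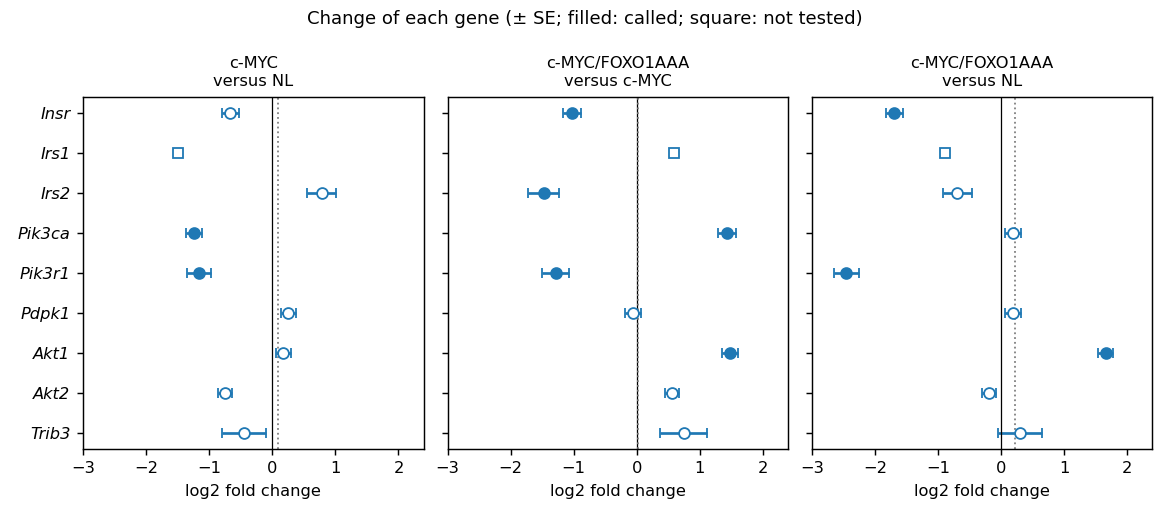
Log2 fold change ± SE of each member in the 3 comparisons, with filled points for calls, a square for Irs1, which was not tested, and a dotted line at the median of all tested genes. With FOXO1AAA, Akt1 and Pik3ca lie at 1.48 and 1.43, and Insr, Pik3r1 and Irs2 at -1.02, -1.29 and -1.47.

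The directions against NL depended on how the libraries were scaled. In the deposited values the effective library sizes were 0.649 to 0.684 times the recovered reads in NL, 1.26 to 1.29 times in c-MYC and 1.45 to 1.5 times in c-MYC/FOXO1AAA. With equal FPKM totals the median of all genes moved from 0.08 to 1.01 for c-MYC versus NL, from 0.21 to 1.31 for c-MYC/FOXO1AAA versus NL and from 0.03 to 0.20 for c-MYC/FOXO1AAA versus c-MYC. For c-MYC versus NL the split of all calls went from 3435 higher and 3305 lower to 7061 and 1895. The members then gave 3 calls higher (Irs2, Akt1 and Pdpk1) and 0 lower in place of 0 and 2. Relative to the median of all genes, the tested members ran for c-MYC versus NL from -1.32 (Pik3ca) and -1.25 (Pik3r1) over -0.83 (Akt2), -0.75 (Insr) and -0.53 (Trib3) to 0.09 (Akt1), 0.17 (Pdpk1) and 0.70 (Irs2).

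**Figure D4:**
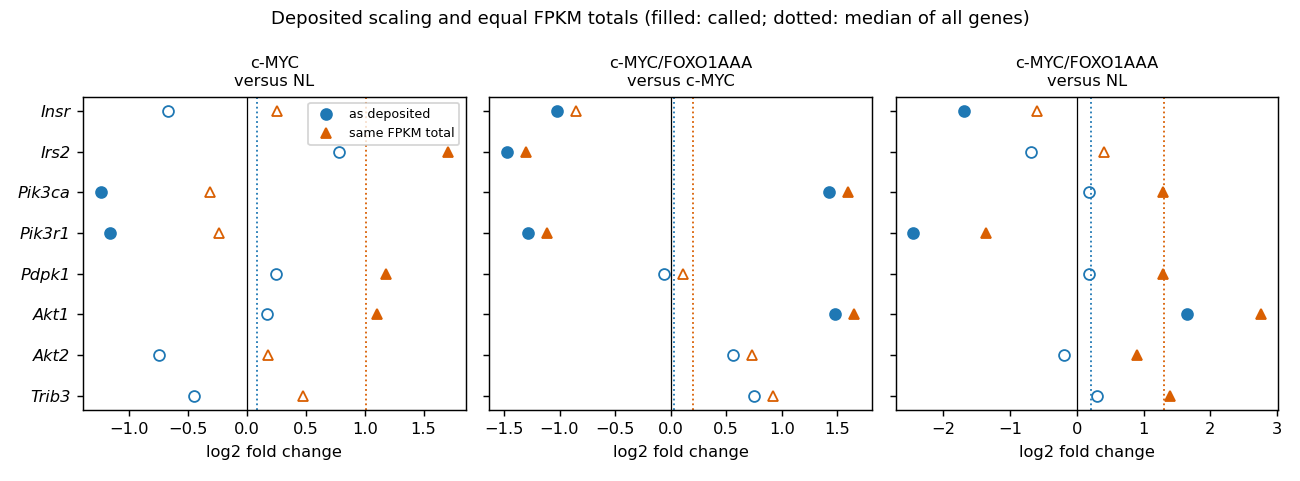
Log2 fold change of the 8 tested members with the deposited scaling (circles) and with equal FPKM totals (triangles), filled where called, with dotted lines at the median of all genes under each. The members move to the right together with the median of all genes, and more so against NL than between the tumor groups.

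Ratios within a library do not depend on its scaling. The log2 ratio of Akt1 to Akt2 was -0.40 ± 0.07 (SD, n = 4) in NL, 0.53 ± 0.11 in the c-MYC tumors (SD, n = 3) and 1.45 ± 0.07 in those with FOXO1AAA (SD, n = 3), with no overlap between groups. Of 6 such tests (2-sided exact permutation), 3 compared 3 with 4 libraries and can reach p = 0.0571 at the least, and 3 compared 3 with 3 and can reach p = 0.1, so none can pass 0.05. The difference in the Akt1 to Akt2 ratio was 0.92 for c-MYC versus NL (exact p = 0.0571, adjusted 0.120) and 0.92 between the tumor groups (exact p = 0.1, adjusted 0.120). The log2 ratio of Irs1 to Irs2 differed by -2.27 (exact p = 0.0571, adjusted 0.120) and then by 2.07 (exact p = 0.1, adjusted 0.120), from -2.39 in NL to -4.66 in c-MYC and -2.59 in c-MYC/FOXO1AAA. That of Insr to Igf1r was 6.38 in NL, 6.34 in c-MYC and -1.40 in c-MYC/FOXO1AAA, a difference of -0.04 (exact p = 0.971, adjusted 0.971) and of -7.74 (exact p = 0.1, adjusted 0.120).

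Beyond the members, 82 genes of the pathway were listed by role, and 74 of them were tested. With FOXO1AAA 23 rose and 8 fell against c-MYC, which is 41.9% of them beside 28.7% of all genes, with a median log2 fold change of 0.32. Of the 74, 5 reached the filter through the c-MYC/FOXO1AAA libraries alone (Igf1r, Sh2b2, Inpp4b, Prr5l and Nupr1), and Ppargc1a through the NL libraries alone. The counts of the 74 are therefore a description. From NL to c-MYC 12 rose and 15 fell, or 36.5% beside 48.1% of all genes, and the split was 36 to 8 with equal FPKM totals. The counts of the lists below stand beside 15.9% of all genes higher and 12.7% lower with FOXO1AAA, and 24.5% and 23.6% for c-MYC versus NL, and with so few genes a list nothing particular to a list is read from them. Genes that brake the receptor went both ways with FOXO1AAA, with 3 of 10 higher and 3 lower. Grb14, an adaptor that blocks the receptor kinase in liver, fell from 37.3 to 37.5 FPKM in c-MYC to 2.39, 3.57 and 7.27 (log2 fold change -3.24 ± 0.31, adjusted p = 3.4e-05), and its relative Grb7 fell by 1.68 ± 0.13 on the log2 scale (adjusted p = 3.7e-05). Their relative Grb10 rose from 1.84, 4.09 and 3.62 FPKM to 18.2, 77.1 and 20.0 (3.34 ± 0.53, adjusted p = 0.0011), with c-MYC/FOXO1AAA replicate 2 far above the others. Socs2, a cytokine and growth hormone brake, rose by 4.07 ± 0.47 (adjusted p = 0.00011), after a fall of 3.63 ± 0.44 on the log2 scale from NL to c-MYC (adjusted p = 9.4e-05). Of the 10 dampers 2 rose and 4 fell from NL to c-MYC, and 3 and 2 with equal totals. Ceacam1, which promotes insulin clearance, fell by 6.94 ± 0.42 on the log2 scale (adjusted p = 3.5e-07), and the phosphatase gene Ptpn2 rose by 1.01 ± 0.12 (adjusted p = 0.0057).

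**Figure D5:**
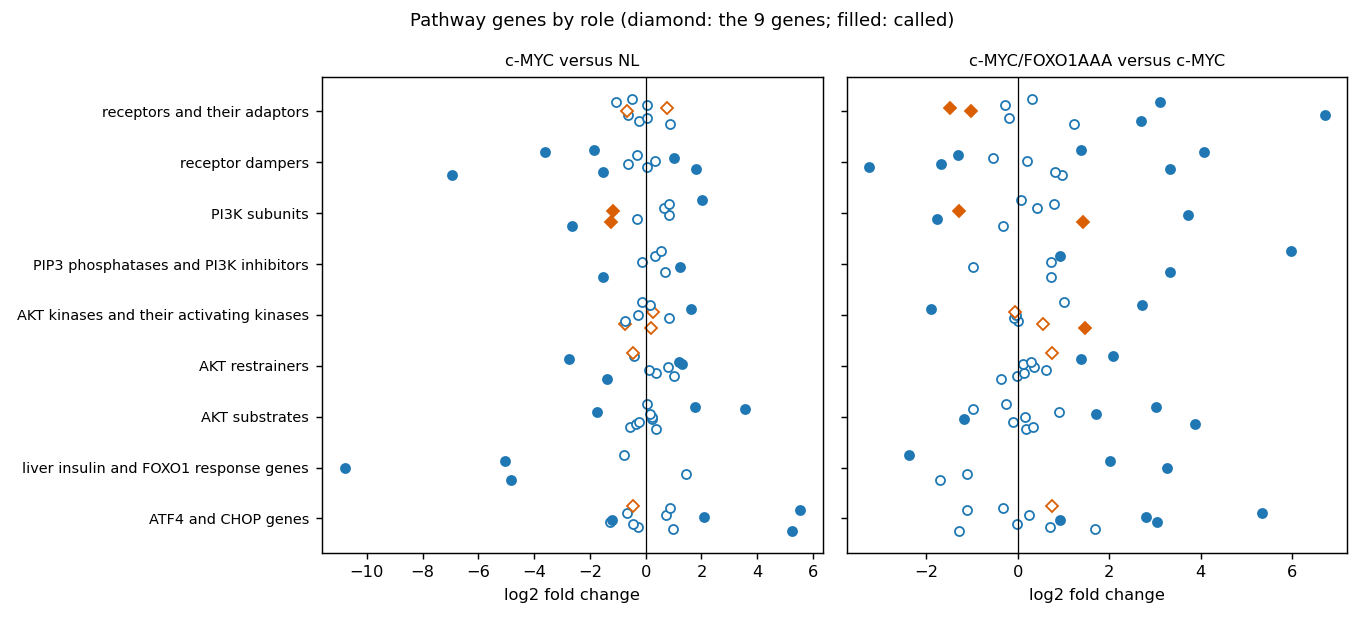
Log2 fold change of most tested pathway genes (points, filled where called) by role, for c-MYC versus NL and c-MYC/FOXO1AAA versus c-MYC, with the 8 tested members as diamonds. Irs1, which was not tested, is not shown. With FOXO1AAA, Igf1r reaches 6.71 among the receptors, Pik3ip1 5.98 among the PI3K inhibitors and Nupr1 5.33 among the ATF4 and CHOP genes, beyond any member.

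Among 9 tested receptors and adaptors 3 rose and 2 fell with FOXO1AAA, and the former included Sh2b2, an adaptor of the insulin receptor, at 3.11 ± 0.48 (adjusted p = 0.00086 with no filter). The counts were 4 and 2 at an unadjusted p under 0.05 and by limma voom with the library sizes of the authors. With equal totals and by limma voom on summed reads they were 4 and 1. From NL to c-MYC 0 of the 9 were called by limma, also at an unadjusted p under 0.05 and by limma voom with the library sizes of the authors, whereas 4 were higher with equal totals and by limma voom on summed reads. Of 8 tested PI3K subunits 2 rose and 2 fell with FOXO1AAA, and 1 rose and 3 fell from NL to c-MYC, or 4 and 1 with equal totals. Pik3ap1, a PI3K adaptor of B cells and macrophages, was the lowest of these at -2.66 ± 0.21 (adjusted p = 5.6e-06), and Pik3r5 was higher at 2.03 ± 0.39 (adjusted p = 0.0053) from 2 to 7 reads in NL. Of the 7 genes that remove PIP3 or inhibit PI3K, 3 rose with FOXO1AAA and 0 fell by limma, with 1 lower at an unadjusted p under 0.05 and 0 by limma voom with either library size. Pik3ip1, which binds and inhibits p110, rose from 2.02, 1.28 and 1.02 FPKM to 96.8, 88.1 and 77.3 (5.98 ± 0.36, adjusted p = 7.8e-07). Inpp4b, a PI(3,4)P2 phosphatase, was at 10 to 15 reads in c-MYC and higher with FOXO1AAA by 3.33 ± 0.46 (adjusted p = 0.00039 with no filter). From NL to c-MYC 1 of the 7 rose and 2 fell, or 4 and 0 with equal totals. The phosphatase gene Inpp4a fell by 1.53 ± 0.16 on the log2 scale (adjusted p = 0.00027), a call that was lost with equal totals, and Inpp5d, the phosphatase SHIP1 of blood cells, rose by 1.22 ± 0.18 (adjusted p = 0.0070).

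The 6 liver genes that respond to insulin or FOXO1 were mostly already lower in c-MYC than in normal liver. From NL to c-MYC 4 of 6 fell and 0 rose by limma, with 1 higher at an unadjusted p under 0.05 and 0 by limma voom with the library sizes of the authors, and 1 higher and 4 lower with equal totals. Of these, Ppargc1a (log2 fold change -5.05) reached the filter on low values through the NL libraries alone. Its level in NL was thus a condition of its being tested, and by limma with no filter it was called as well (adjusted p = 1.4e-05). Pck1, which encodes the gluconeogenic enzyme PEPCK, was at 1274 to 1623 FPKM in NL, at 0.741, 0.364 and 1.84 in c-MYC and at 5.79, 11.7 and 6.54 in c-MYC/FOXO1AAA. It rose with FOXO1AAA by 3.27 ± 0.48 on the log2 scale (adjusted p = 0.00078) and stayed far below every NL library. G6pc, the last enzyme of glucose release, was at -4.82 ± 0.58 for c-MYC versus NL (adjusted p = 6.6e-05) and at -1.69 ± 0.62 for c-MYC/FOXO1AAA versus c-MYC (adjusted p = 0.16). Srebf1, the insulin-induced regulator of fatty acid synthesis, fell with FOXO1AAA from 68.3, 88.2 and 52.2 FPKM to 13.7, 11.9 and 14.1 (-2.37 ± 0.19, adjusted p = 1.8e-05). Ppargc1a, a coactivator of FOXO1, was at 2 to 23 reads in c-MYC and 35 to 50 in c-MYC/FOXO1AAA, and its call (2.02 ± 0.55, adjusted p = 0.047) was lost in 16 of 24 alternatives. Igfbp1, a FOXO1 target in liver, was not called, at 37.0, 94.3 and 89.1 FPKM in c-MYC and 28.9, 20.4 and 52.4 in c-MYC/FOXO1AAA (-1.11 ± 0.44, adjusted p = 0.34).

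For each member called in the comparisons of c-MYC with NL or of c-MYC/FOXO1AAA with c-MYC, the tested genes with the nearest profile were found by the Euclidean distance of mean-centred log2 FPKM over the 10 libraries. For Insr they were Ptpn6 (0.30), Stim1 (0.32) and Lap3 (0.32), beside a length of the Insr profile of 2.27. For Pik3ca they were Hp1bp3 (0.35), Plekha3 (0.42) and Tmem123 (0.44), with a length of 1.96. For Akt1 they were Smad5 (0.43), Stau2 (0.45) and Tmem189 (0.48), with a length of 2.34. For Pik3r1 they were Pacsin3 (0.54), Ern1 (0.56) and Fas (0.59), with a length of 3.29. Irs2 had the most distant neighbors, Golga4 (0.63), Ppp2r3a (0.65) and Mkx (0.66), with a length of 2.02. These distances mainly follow the 3 group means, which all 10 libraries share.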

How the data were processed

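RNA was extracted from NL (n = 4), c-MYC (n = 3) and c-MYC/FOXO1AAA (n = 3) mouse livers and sequenced after polyA capture or rRNA removal. The deposited values are log2 FPKM. Per the labels the build was GRCm38 and FastQC 0.11.7 was named, and the methods say that the authors counted reads by gene and tested them with edgeR. Aligner, annotation version and strandedness are not given in the sources used here. Of 17069 entries 372 carried no symbol and were left out. Each value includes 2 added reads, scaled by library size, and solving for a whole-number gene length (tolerance 0.001 reads, up to 130000 bp) gave whole reads with 1 length for 16686 of 16697 genes (99.9%), so depth is known.

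The deposited log2 values were fitted with limma 3.58.1 (R 4.3.3) over all 10 libraries, with 3 group means, trend and robust, and treat tested for a change beyond 1.5-fold (2-sided). A gene was called where p, adjusted by Benjamini-Hochberg over all 14017 tested, was below 0.05. The added reads stay in the log2 fold changes, so those of low genes are understated. The fit was tested on simulated reads with the same spread setting for all genes and the library sizes of the authors. That test says nothing on the choice of scaling. Ratios used exact permutation tests (scipy 1.17.1). The alternatives were pseudocounts of 0.1 and 1, no filter, a mean FPKM of at least 5, 3 other scalings, other fold thresholds, no trend, only the groups compared, a replicate block and leaving out each library. Limma voom on the recovered reads, with the library sizes of the authors or summed reads, was added after seeing the data. Positions are from GENCODE M21 and promoters from RefSeq.

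Besides the members, the text names Foxo1, Igf1r, liver response genes, the 3 nearest profiles of each called member, and from each list up to 2 called genes in each direction per comparison, by size of change. Hnf4a, Alb, Apoa1, Apob, Ttr, Fgb, Cps1, Dcn, Lrat, Myog, Myod1, Clec4f, Timd4, Cd68, Pik3r2 and Pik3r3 were named after their values were seen. The same holds for the named endothelial and biliary markers. Some listed genes are counted but not reported here. The members and lists were chosen with earlier results of these data known.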

Additional observations from a re-analysis of the deposited data

Results flagged for a closer look

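In NL, the only group of 4 libraries, 3 of 50 genes examined had a library whose gap to the others exceeded Dixon's 95% critical value for the share of the range, and chance gives about 5% of groups. Grb10 was at 1.30 FPKM in NL replicate 3 and at 0.739 to 0.767 in the others. Srebf1 was at 90.2 FPKM in NL replicate 3 and at 123 to 129 in the others. Nupr1 was at 1.08 FPKM in NL replicate 4 and at 0.884 to 0.911 in the others, all from 6 or 7 reads. None of the 9 members stood out in this way.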

How the results depend on the processing

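Over 24 alternatives, the calls for Akt1 and Pik3ca with FOXO1AAA against c-MYC, and for Akt1 and Pik3r1 against NL, held throughout, and Irs2 in c-MYC/FOXO1AAA versus c-MYC was lost with a fold threshold of 2 alone (adjusted p = 0.186). For c-MYC versus NL the number of members called, 2, became 5 with no fold threshold, 0 with a threshold of 2 (1 at an unadjusted p under 0.05, by limma treat) and 1 to 2 when a library was left out. In the tumors with against those without FOXO1AAA the number, 5, became 3 with a pseudocount of 1, 2 with a threshold of 2, and 3 to 5 when a library was left out. For c-MYC/FOXO1AAA versus NL the number, 3, became 6 with equal FPKM totals and 6 with limma voom on summed reads, where the library sizes leave out the scaling of the authors. Calls over all genes were 10432 and 7688 with no fold threshold for c-MYC versus NL and c-MYC/FOXO1AAA versus c-MYC (6740 and 4016 as reported), and 2280 and 5211 with a mean FPKM of at least 5 for c-MYC/FOXO1AAA versus c-MYC and versus NL (4016 and 8099 as reported), where fewer genes were tested. Limma voom with the library sizes of the authors called 6608, 4343 and 8127 genes in the 3 comparisons.

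Directions turned for values that were not called. With equal FPKM totals and with limma voom on summed reads, c-MYC versus NL became 0.26 and 0.25 for Insr, 0.18 and 0.17 for Akt2 and 0.48 and 0.45 for Trib3, and c-MYC/FOXO1AAA versus NL became 0.41 and 0.43 for Irs2 and 0.91 and 0.94 for Akt2, which was 0.19 with quantile normalization. Pdpk1 in c-MYC/FOXO1AAA versus c-MYC became 0.11 with equal totals, 0.088 with quantile normalization, 0.15 with limma voom on summed reads, and ran from -0.13 to 0.056 when a library was left out, above 0 without c-MYC replicate 2 (0.049) and without c-MYC/FOXO1AAA replicate 3 (0.056). The log2 ratio of Insr to Igf1r for c-MYC versus NL ran from -0.65 to 0.46 when a library was left out, and it rests on 13 to 47 Igf1r reads per library. The other causes were not tested.

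Same-numbered libraries of different groups did not deviate together (correlations from -0.04 to 0.03 over genes, beside -0.07 to 0.07 for differently numbered ones). The labels do not say what the numbers stand for, and these correlations do not settle it. A replicate block left 1 member called for c-MYC versus NL, where Pik3r1 had an adjusted p of 0.0512, and changed the call of no other member. Taken as differences within numbers 1 to 3 under the pairing, the 6 ratios kept their direction.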

Other observations

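Of 10 genes for AKT and its activating kinases, among them the subunits of mTORC2, which phosphorylates the hydrophobic motif of AKT, 3 rose and 1 fell with FOXO1AAA, beside 15.9% of all tested genes higher and 12.7% lower. The counts were 4 and 1 at an unadjusted p under 0.05, by limma voom with either library size and with equal FPKM totals. Prr5, which encodes the mTORC2 subunit PROTOR1, rose from NL to c-MYC by 1.64 ± 0.15 on the log2 scale (adjusted p = 5.7e-05) and fell with FOXO1AAA by 1.90 ± 0.16 (adjusted p = 3.5e-05), from 18.2, 19.9 and 22.6 FPKM to 4.51, 5.41 and 6.51. Prr5l, its relative PROTOR2, reached the filter on low values only because of the c-MYC/FOXO1AAA libraries. It was higher by 2.71 ± 0.56 (adjusted p = 0.0063 with no filter), from 0.599, 2.42 and 0.408 FPKM to 6.22, 5.96 and 4.48. Rictor, the defining subunit, chosen after its values were seen, was at 2.03 to 2.78 FPKM in c-MYC and at 4.04 to 5.64 in c-MYC/FOXO1AAA and was not called (1.02 ± 0.20, adjusted p = 0.081). Between NL and c-MYC 1 of the 10 rose and 0 fell by limma, at an unadjusted p under 0.05 and by limma voom with the library sizes of the authors alike, beside 24.5% of all genes higher and 23.6% lower. With equal FPKM totals and by limma voom on summed reads it was 4 and 0.

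Of 11 tested AKT substrates 3 rose and 1 fell with FOXO1AAA, beside 15.9% of all tested genes higher and 12.7% lower. Since Foxo1 is the gene of the injected transgene, this leaves 2 of the other 10 higher. Tbc1d4, the glucose transporter regulator AS160 of muscle and fat, rose from 2.04, 1.43 and 2.28 FPKM to 17.1, 16.2 and 12.7 (3.02 ± 0.24, adjusted p = 7.9e-06), in libraries where the muscle markers were also higher, and that relation was not tested. Foxo4 fell by 1.17 ± 0.14 on the log2 scale (adjusted p = 0.0039). Between NL and c-MYC 2 of the 11 rose and 1 fell, beside 24.5% of all genes higher and 23.6% lower, or 7 and 0 with equal FPKM totals. The calls with the deposited scaling included Tbc1d1 at 3.55 ± 0.33 (adjusted p = 1.2e-05) and Pde3b, which degrades cyclic AMP, at -1.75 ± 0.20 (adjusted p = 0.00024, lost with equal FPKM totals).

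Of 10 tested genes that restrain AKT, Trib3 included, 2 rose with FOXO1AAA and 0 fell by limma, beside 15.9% of all tested genes higher and 12.7% lower. The counts were the same by limma voom with the library sizes of the authors and at an unadjusted p under 0.05. The 2 higher genes were the Trib3 relatives Trib1, from 4.35, 3.74 and 4.99 FPKM to 12.3, 12.3 and 9.37 (1.38 ± 0.15, adjusted p = 0.0010), and Trib2 (2.09 ± 0.33, adjusted p = 0.0027). In c-MYC compared with NL, 2 rose and 2 fell, beside 24.5% of all genes higher and 23.6% lower, or 6 and 1 with equal FPKM totals. Trib1 fell by 2.77 ± 0.14 on the log2 scale (adjusted p = 1.9e-07) and the AKT phosphatase gene Phlpp1 by 1.40 ± 0.17 (adjusted p = 0.0012, lost with equal FPKM totals), while the PP2A subunit genes Ppp2r1b and Ppp2r2a rose by 1.32 ± 0.11 (adjusted p = 0.00011) and 1.20 ± 0.11 (adjusted p = 0.00045).

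The summed level of 6 endothelial markers was 45.2 to 60.7 FPKM in NL, 9.81 to 17.3 in c-MYC and 26.3 to 41.0 in c-MYC/FOXO1AAA. Its rise with FOXO1AAA was mostly Cdh5, at a mean of 4.61 FPKM in c-MYC and 26.0 in c-MYC/FOXO1AAA. Pecam1, Kdr and Stab2 had lower means there, Lyve1 and Clec4g had higher ones, and the median log2 fold change was -0.71. With FOXO1AAA 1 of 5 tested was higher and 0 lower by limma, beside 15.9% of all tested genes higher and 12.7% lower. It was 2 and 0 at an unadjusted p under 0.05, and 1 and 0 by limma voom with the library sizes of the authors. The summed level of 5 biliary markers was 20.1 to 27.9, 17.6 to 32.4 and 30.2 to 38.1 FPKM in NL, c-MYC and c-MYC/FOXO1AAA, and it hides opposite changes. Mean Epcam was at 1.24, 15.1 and 1.99 FPKM in that order, and mean Spp1 at 19.7, 1.55 and 25.5. Of 4 tested, 2 rose and 1 fell from NL to c-MYC, beside 24.5% of all tested genes higher and 23.6% lower. With FOXO1AAA 2 rose and 1 fell, beside 15.9% and 12.7%. Krt7 reached the filter through the c-MYC libraries alone and Krt19 through the c-MYC/FOXO1AAA libraries alone.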
